A study of Xenopus tropicalis with 36 samples.

Results

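The gene for the T-box transcription factor t (Brachyury) and its paralog t2 lie side by side on scaffold 5 of the *Xenopus tropicalis* genome, and the genes described here are their neighbours on the chromosome. In the deposited annotation of assembly v7.1, t runs from 72053579 to 72062232 and t2 from 72091808 to 72101743, both on the plus strand. A gene was included when the midpoint of its annotated line lay within 10 Mb of the start of t, and t and t2 themselves were left out. This gave 297 gene lines, 128 on the lower and 169 on the higher side of t, of which 291 matched the count table of 25774 genes and 6 did not. The outermost neighbours inside the window were akap7 at -9.81 Mb and Xetro.E01126 at 9.93 Mb, and the first genes outside were arg1 at -10.05 Mb and mthfd1l at 10.02 Mb. The choice used position only and no expression value.

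Poly(A) RNA of whole embryos was sequenced in a knockdown (KD) and a knockout (KO) experiment, with 18 libraries each. In the KO experiment, frogs heterozygous for small TALEN-induced frameshift deletions in exon 1 of t (allele te1.2D) and exon 3 of t2 (allele t2e3.7D) were crossed 3 times (crosses 1, 2 and 9), and the offspring were sorted by genotype into wild-type, t/t2 het (te1.2D/+ t2e3.7D/+) and t/t2 KO (homozygous for both alleles). Because t and t2 are neighbours, het and KO embryos are counted below as carrying 1 and 2 mutant chromosomes. In the KD experiment, embryos of 3 frogs (D, E and F) were left uninjected or received at the 1-cell stage 18 ng of either a standard control morpholino (cMO) or a mixture of splice- and translation-blocking morpholinos against t and t2 (t/t2 MO), and none of them carried the deletions. All frogs were out-bred Nigerian. Morpholinos are antisense oligomers that bind RNA. Embryos of all 6 conditions were collected at tailbud stages 26 and 34, with 1 library of pooled siblings per clutch, so that there were 3 libraries per condition and stage and 36 in all. The mutant chromosomes come from a double-heterozygous line made by editing t first and t2 later.

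Siblings sorted by a mutation are also sorted by everything that lies near it. During meiosis, segments of a chromosome are inherited together unless a crossover separates them, so KO embryos tend to be homozygous, and het embryos heterozygous, for the version of the flanking genes that stood on the edited chromosome, while wild-type siblings carry the other version. A flanking gene can therefore differ between genotypes through its own alleles as well as through the loss of Brachyury, a T-box activator needed for the notochord and posterior mesoderm of vertebrate embryos. Morphants keep the flanking alleles of their parents whatever the treatment. The genes around t are of no common function: among them are muscle and basement membrane genes (mybph, txlnb, lama2), the Notch ligand dll1, enzymes (fh, kmo) and many gene models without a name.

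Depth was 30225504 to 52401214 gene fragments per library (median 37215941), and libraries were scaled with TMM. Of the 291 neighbours, 210 had a mean normalized count above 7 over the uninjected, cMO, wild-type and het libraries, and 81 did not. Of the 210, 157 had a gene symbol. Normalized counts of t2 in the KO libraries were 0 to 4, against 636 to 992 in wild-type, and those of t were 38 to 146 against 386 to 881. Lists of muscle and mesoderm markers moved with the genotype. In KO embryos, 9 of 10 skeletal muscle markers and 5 of 6 detected paraxial mesoderm markers were lowered, and 8 of 10 and 5 of 6 in t/t2 morphants, with none in het embryos. Of 4 detected notochord markers, 3 were lowered in KO and 2 in t/t2 MO embryos. Other lists moved little or otherwise. Of 6 neural markers, 1 was raised in KO embryos. Of 4 blood markers, 1 was raised in KO and 1 lowered in t/t2 MO embryos. Of 4 myeloid markers, none was called in KO, 2 were raised in t/t2 MO and 1 was raised in cMO embryos. The summed muscle markers were 499685 to 581212 normalized counts in wild-type, 242930 to 286879 in KO, 463729 to 630671 in uninjected and 234575 to 344870 in t/t2 MO libraries. In whole embryos, fewer cells of a type and less RNA per cell cannot be told apart.

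The level of scaffold 5 as a whole was not the same in all libraries of the KO experiment, which bears on every value below. Over the 1040 genes of scaffold 5 that passed the filter and lie outside the window, the median deviation of a library from the mean of its stage was 0.28 (log2) in wild-type of cross 1 at stage 34, -0.19 in wild-type of cross 9 at stage 34, and -0.17, -0.20, -0.12 and -0.23 in the KO libraries of crosses 1 (stages 26 and 34) and 9 (stages 26 and 34). The 6 libraries of cross 2 lay between -0.04 and 0.12, and the 18 libraries of the KD experiment between -0.08 and 0.05. The neighbours of t moved with the rest of the scaffold: in the KO library of cross 1 at stage 34 their median was -0.58 below its wild-type sibling library on the log2 scale, where the rest of scaffold 5 was at -0.45 and the other scaffolds at 0.07. In cross 2 the same medians of the neighbours were 0.05 at stage 26 and -0.09 at stage 34. Other scaffolds also deviated in single libraries of crosses 1 and 9, for example scaffold 10 by -0.29 in het of cross 1 at stage 34. The part of these shifts in the differences between genotypes was not tested directly, but the counts for KO and het against wild-type, KO against het, the trend with mutant chromosomes and the het midpoint were also computed with the scaffold 5 level of each library taken out, an alternative chosen after the data had been seen. The counts per cross, by distance from t, between crosses and stages and between the MO and KO effects were not.

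**Figure D1:**
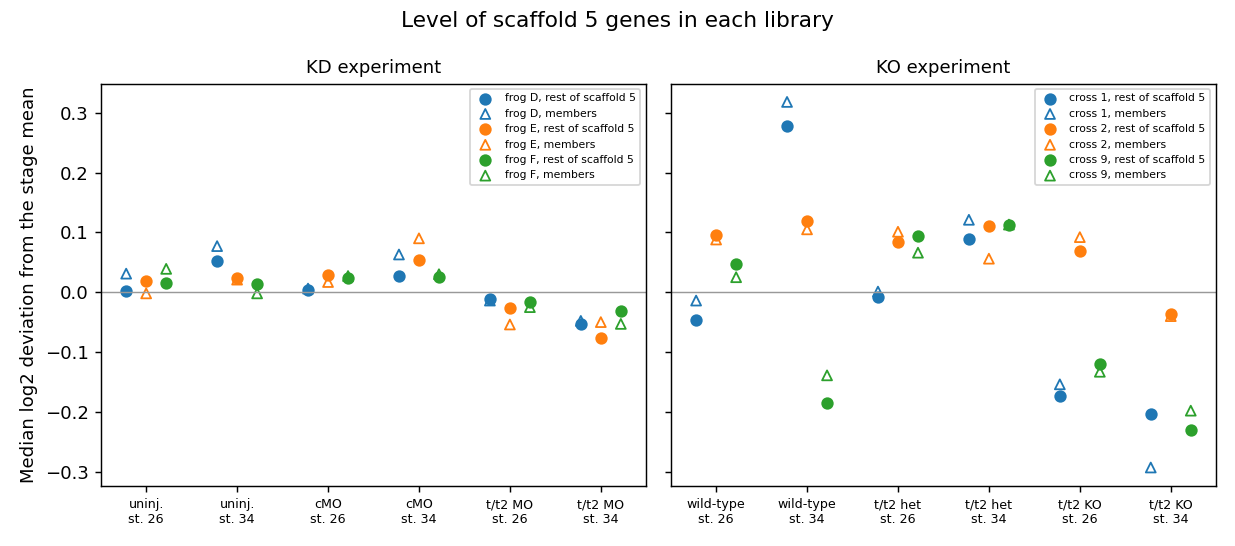
Median log2 deviation of each library from the mean of its stage, for the 210 neighbours of t (open triangles) and for the 1040 other genes of scaffold 5 (filled circles), by condition, stage and clutch (colour). For the rest of scaffold 5, libraries of the KD experiment lie between -0.08 and 0.05 and those of cross 2 between -0.04 and 0.12, wild-type of cross 1 at stage 34 lies at 0.28, and 4 KO libraries of crosses 1 and 9 lie below -0.1.

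In KO embryos, 17 of the 210 neighbours differed from wild-type, and 16 of them were lower. Calls required a false discovery rate (FDR, Benjamini-Hochberg over all genes) no higher than 10% in edgeR's quasi-likelihood test, together with a change of 1.5-fold or more. Adjusted p-values below are from this test. The share was 8.1% of the neighbours, beside 3.44% of all 17987 genes past the filter (0.467% raised and 2.97% lowered), 6.73% of the rest of scaffold 5 and 3.17% of the other scaffolds. Of the 17, 15 had the same sign in all 6 cross-by-stage pairs, and in 14 the wild-type and KO values did not overlap at either stage. Over all genes, 4.64% had no overlap, and 25 of the 210 neighbours (11.9%). The same sign in all 6 pairs was found in 58 of the 210 neighbours. The 17 were called from these same libraries, so their agreement in sign and lack of overlap follow largely from the choice. The rest of scaffold 5 leaned the same way, with 66 of 70 called genes lowered. The median change was -0.16 in the neighbours and -0.16 in the rest of scaffold 5. The median absolute change was 0.23, against 0.19 in the rest of scaffold 5 and 0.12 on other scaffolds. With the scaffold 5 level taken out, 18 neighbours were called (7 raised, 11 lowered, 12 of them among the 17). This is 8.57%, beside 5.38% of the rest of scaffold 5 and 3.16% of other scaffolds. The median absolute change was then 0.16, beside 0.13 in the rest of scaffold 5 and 0.12 on other scaffolds. Without cross 1, 11 neighbours were called, 9 of them among the 17.

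**Figure D2:**
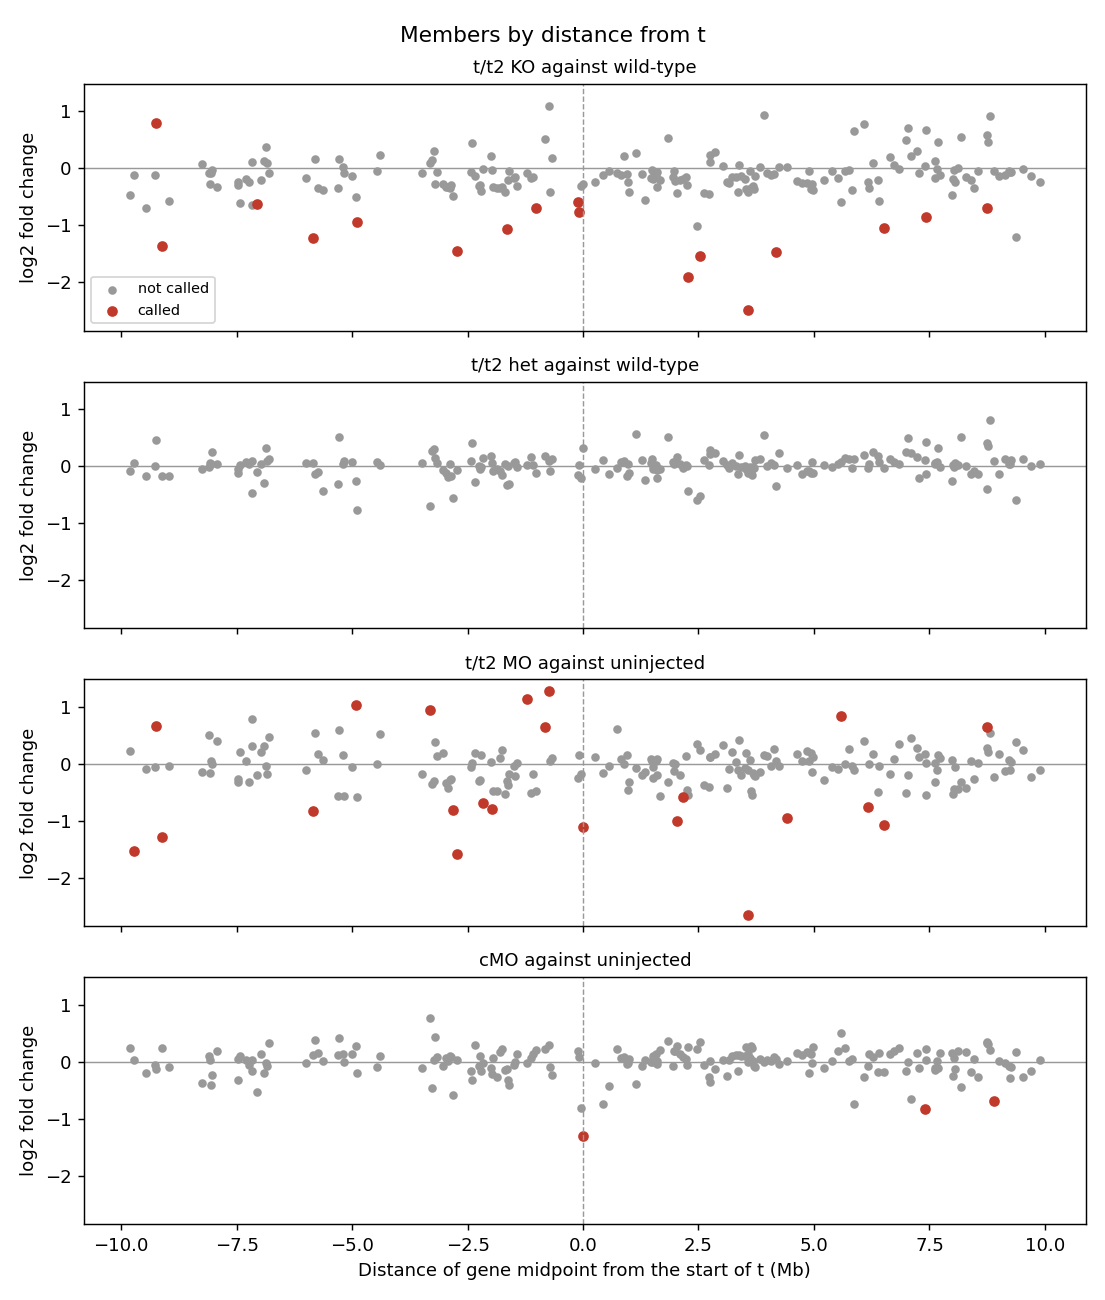
Log2 fold change of each of the 210 neighbours against the distance of its midpoint from the start of t (Mb), in 4 comparisons, with called genes in red. In KO embryos 16 of 17 called neighbours lie below 0 and are spread over the whole window, in het embryos none is called, and in t/t2 morphants 8 lie above and 14 below 0.

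The called neighbours were spread over the whole window. Within 1 Mb, 2 of 17 genes past the filter were called in KO embryos (11.8%), at 1 to 2.5 Mb 3 of 46 (6.52%), at 2.5 to 5 Mb 5 of 57 (8.77%) and at 5 to 10 Mb 7 of 90 (7.78%). Beyond the window, the share was 28 of 218 (12.8%) at 10 to 20 Mb and 42 of 822 (5.11%) farther away on scaffold 5. Scaffold 5 had the highest share of the 10 large scaffolds, with 6.96% of 1250 genes, and the others ranged from 2.58% to 4.23%. Genes called in KO embryos but not in t/t2 morphants were 10 of the 210 neighbours (4.76%), beside 1.04% of all genes, 3.08% of the rest of scaffold 5 and 0.869% of the other scaffolds. By distance, these were 2 of 17 within 1 Mb (11.8%), 3 of 46 at 1 to 2.5 Mb (6.52%), 3 of 57 at 2.5 to 5 Mb (5.26%) and 2 of 90 at 5 to 10 Mb (2.22%), then 17 of 218 at 10 to 20 Mb (7.8%) and 15 of 822 farther away (1.82%). The share was thus lower in each bin farther out inside the window and higher again just beyond it, on counts of 2 or 3 per bin inside. These shares were not tested, nor recomputed with the scaffold 5 level taken out. With it taken out, sft2d1, 1 of the 2 within 1 Mb, lost its KO call. So did fh, rsph3 and Xetro.E00891 farther out, while other neighbours, such as shprh, gained one.

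The called neighbours with large decreases at high counts included genes of muscle and of the extracellular matrix. The largest decrease was in pdgfrl.2. pdgfrl.2 (75619961 to 75643229, minus strand, 7 exons), a gene related to the PDGF receptor, had 337, 465 and 462 normalized counts in wild-type of crosses 1, 2 and 9 at stage 26, 400, 350 and 352 in het and 53.7, 70 and 59.9 in KO embryos. At stage 34 it had 233, 303 and 303 in wild-type, 343, 226 and 318 in het and 46, 69.6 and 69.3 in KO embryos. All KO values lay far below all others, and het values overlapped wild-type. The log2 change was -2.50 ± 0.16 (SE, adjusted p = 3.47e-11) in KO, -0.07 in het and -2.65 ± 0.29 (adjusted p = 4.73e-07) in t/t2 MO embryos, where levels fell from 495 to 604 to 37.9 to 44.7 at stage 26. The span of its model overlaps that of Xetro.E01019 on the opposite strand. Overlap was taken from whole gene lines with introns, and shared exons were not examined. The authors counted only read pairs with a unique match to a single gene. The library protocol does not mark strand, so reads from any shared exon could not be assigned by strand.

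lama2 (62820803 to 63040672, minus strand, 62 exons), which is named after the laminin chain of the muscle basement membrane but described in the deposited terms as laminin alpha-1, had 4823, 4973 and 6112 normalized counts in wild-type at stage 26 and 2370, 2403 and 2259 in KO, and 3877, 3940 and 2856 against 1005, 1388 and 1232 at stage 34. The groups did not overlap at either stage. Its change was -1.38 ± 0.12 (adjusted p = 1.54e-08) in KO, -0.18 in het and -1.29 ± 0.14 (adjusted p = 4.32e-07) in t/t2 MO embryos. It overlaps Xetro.E00837 on the opposite strand.

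mybph (78531228 to 78614822, plus strand), a myosin-binding protein of the sarcomere, was the most abundant of the called neighbours. It had 16239, 15127 and 17781 normalized counts in wild-type and 7894, 7826 and 8463 in KO at stage 26, and 21642, 21316 and 14111 against 9324, 9732 and 8438 at stage 34. The decrease was -1.05 ± 0.12 (adjusted p = 9.50e-07) in KO and -1.07 ± 0.13 (adjusted p = 1.59e-06) in t/t2 MO embryos, with -0.03 in het. txlnb (beta-taxilin, a protein of muscle) had 539, 767 and 733 in wild-type and 284, 371 and 293 in KO at stage 26, and changed by -1.23 ± 0.13 (adjusted p = 1.16e-07) in KO, 0.06 in het and -0.82 ± 0.14 (adjusted p = 1.22e-04) in t/t2 MO embryos.

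lyst, the lysosomal trafficking regulator, was lower in both KO and t/t2 MO embryos as well. It had 888, 1656 and 1324 in wild-type at stage 26 and 256, 450 and 277 in KO, and 1120, 1077 and 1288 against 452, 677 and 625 at stage 34. The log2 change was -1.46 ± 0.20 (adjusted p = 1.10e-05) in KO, -0.08 in het and -1.59 ± 0.20 (adjusted p = 3.97e-06) in t/t2 MO embryos. These 5 genes (pdgfrl.2, lama2, mybph, txlnb and lyst) were each called in every cross, and their MO effect did not differ from their KO effect beyond the thresholds, with differences of -0.15 to 0.41.

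**Figure D3:**
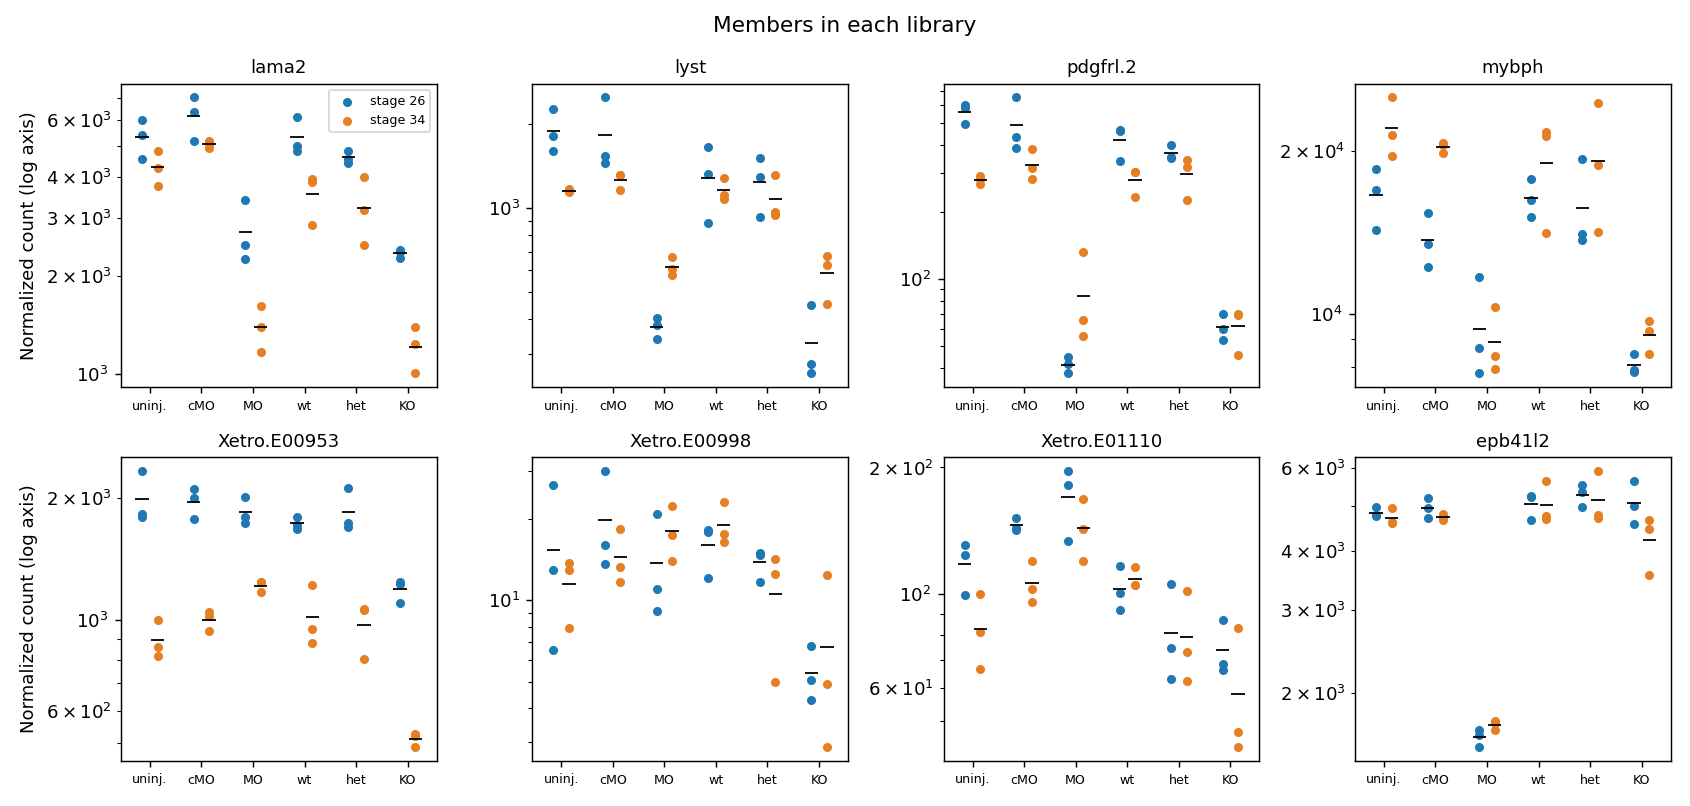
Normalized counts (log axis) of 8 neighbours of t in each library, by condition (uninjected, cMO, t/t2 MO, wild-type, het and KO) and stage (colour), with bars for the mean of 3 libraries. In lama2, lyst, pdgfrl.2 and mybph both MO and KO libraries are low, in Xetro.E00953 and Xetro.E00998 the KO libraries are low and the MO libraries are not, Xetro.E01110 is low in KO and high in MO libraries, and epb41l2 is low in MO libraries alone.

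In a further 5 neighbours that were lower in KO embryos, the MO effect differed from the KO effect. Xetro.E00953, a model of a single exon without a name 0.084 Mb from the start of t (71967666 to 71972469), had 1798, 1719 and 1681 normalized counts in wild-type and 1239, 1228 and 1106 in KO at stage 26, and 1222, 880 and 950 against 488, 520 and 526 at stage 34. It was called in every cross, with a change of -0.78 ± 0.11 (adjusted p = 1.66e-05) in KO, 0.01 in het and 0.16 in t/t2 MO embryos. The MO effect was 0.93 above the KO effect (adjusted p = 2.14e-05).

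A pair of models described as smyd3 or by its SET and MYND domains, those of a lysine methyltransferase, and the model named smyd3 that lies between them follow each other on the plus strand from 2.28 to 2.54 Mb. Xetro.E00998 (74588507 to 74606630) had 18.2, 17.9 and 12.1 normalized counts in wild-type and 5.07, 6.8 and 4.28 in KO at stage 26, and 23.1, 16.4 and 17.6 against 2.87, 4.9 and 12.4 at stage 34. It changed by -1.54 ± 0.34 (adjusted p = 5.99e-03) in KO, -0.53 in het and 0.24 in t/t2 MO embryos. Xetro.E00995 (74323889 to 74350697) changed by -1.91 ± 0.39 (adjusted p = 2.68e-03) in KO, -0.44 in het and -0.55 in t/t2 MO embryos. smyd3 itself, chosen here after its values were seen, was at -1.01 in KO (adjusted p = 0.179, not called), -0.61 in het and 0.35 in t/t2 MO embryos. The MO effect exceeded the KO effect past the thresholds in each of these models, by 1.36 to 1.78. With counts of 20 or less in most libraries, the single values are of low precision. With like descriptions and neighbouring positions on 1 strand, the 3 models may be parts of 1 gene, and their entries in the counts of neighbours are then not independent.

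Xetro.E01036, without a name and 4.17 Mb from t, had 79.2, 76.5 and 28.1 normalized counts in wild-type and 12.2, 26.2 and 18.2 in KO at stage 26, and 14.7, 24.1 and 20.4 against 4.79, 9.81 and 12.4 at stage 34. It changed by -1.48 ± 0.30 (adjusted p = 2.74e-03) in KO, -0.36 in het and 0.04 in t/t2 MO embryos. Without cross 1, neither this gene nor Xetro.E00998 was called, at -1.14 and -1.19, and without cross 9 Xetro.E00995 was not, at -1.51.

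Xetro.E01110 moved in opposite directions. It had 117, 91.6 and 101 normalized counts in wild-type, 106, 74.4 and 63.1 in het and 87.1, 66.1 and 68.4 in KO embryos at stage 26, and rose from 99.4, 131 and 124 in uninjected to 134, 182 and 196 in t/t2 MO embryos. The change was -0.70 ± 0.19 (adjusted p = 0.0378) in KO and 0.65 ± 0.14 (adjusted p = 0.001) in t/t2 MO embryos. It lies at 8.76 Mb between shprh and Xetro.E01111, both described as SNF2 histone linker PHD RING proteins, which were at 0.58 and 0.46 in KO embryos and were not called. With the scaffold 5 level taken out, both were called as raised, at 0.76 and 0.64, and Xetro.E01110 was no longer called, at -0.54 (adjusted p = 0.22). These 2 models, which may likewise be parts of 1 gene, were chosen after their values were seen.

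Smaller decreases were found in genes of metabolism, vesicles and cilia, and the first 3 given here lost their call when the level of the scaffold was taken out. fh (fumarate hydratase, of the citric acid cycle) changed by -0.71 ± 0.14 (adjusted p = 0.0024) in KO embryos, sft2d1 (a protein of vesicle traffic in yeast homologs, 0.108 Mb from t) by -0.59 ± 0.10 (adjusted p = 1.84e-04) and rsph3 (a radial spoke protein of motile cilia) by -0.63 ± 0.14 (adjusted p = 7.29e-03). sft2d1 had 858, 928 and 816 normalized counts in wild-type and 568, 667 and 631 in KO embryos at stage 26, and 850, 755 and 635 against 460, 499 and 440 at stage 34, with no overlap. With the scaffold 5 level taken out the 3 genes were at -0.53, -0.42 and -0.45, below the 1.5-fold threshold. rnaset2 (an acid ribonuclease of the lysosome) was at -1.06 ± 0.27 (adjusted p = 0.0233), with 177, 160 and 484 normalized counts in wild-type against 122, 174 and 85.5 in KO at stage 26, and the cross 2 value did not share the direction. Xetro.E01085 was at -0.86 ± 0.12 (adjusted p = 9.63e-06) and Xetro.E00891 at -0.95 ± 0.30 (adjusted p = 0.089), which also lost its call with the scaffold 5 level taken out, at -0.78 (adjusted p = 0.243). The only raised neighbour, Xetro.E00835, described as a mitochondrial enoyl reductase, was at 0.78 ± 0.23 (adjusted p = 0.0702) in KO and 0.66 ± 0.28 (adjusted p = 0.0911) in t/t2 MO embryos, and it overlaps Xetro.E00834 on the opposite strand.

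Of the 8 genes nearest to t, 4 on either side, sft2d1 and Xetro.E00953 were called in KO embryos, as given above, and the other 6 were not. On the lower side, Xetro.E00954 was at -0.32 and Xetro.E00955 at -0.29 in KO embryos, and on the higher side pde10a (a cyclic nucleotide phosphodiesterase) and Xetro.E00964 were at -0.25 and -0.09. Xetro.E00955, which ends before the start of t, was lower in both groups of injected embryos, by -1.11 ± 0.27 in t/t2 MO (adjusted p = 3.91e-03) and -1.30 in cMO (adjusted p = 0.0129). dll1, the Notch ligand of the presomitic mesoderm at 1.28 Mb, was the 1 detected paraxial mesoderm marker that was not lowered. It had 5746, 5949 and 5882 normalized counts in wild-type and 4777, 6252 and 5504 in KO embryos at stage 26, with a change of -0.10 ± 0.08 (adjusted p = 0.689) in KO and -0.20 ± 0.06 (adjusted p = 0.0247, under 1.5-fold) in t/t2 MO embryos. It was chosen after its values were seen.

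No neighbour was called in het embryos, beside 0.0222% of all genes (4 genes). At an unadjusted p under 0.05 there were 8 of 210 (3.81%), beside 1.68% of all genes, and DESeq2's likelihood ratio test called 0 neighbours and 10 genes in all. The median change of the neighbours was 0.01. Het and wild-type values did not overlap at either stage in 1 neighbour (0.476%), beside 0.239% of all genes. All 17 neighbours called in KO embryos had a smaller change in het than in KO embryos, and 15 had the same sign. The 17 were chosen for a KO change of 1.5-fold or more, and both changes share the wild-type libraries. Much of this pattern therefore follows from the choice, and it is a description only. Between KO and het embryos, 9 neighbours were called (4.29%), all lower in KO, beside 2.67% of all genes, and without cross 2 there were 16. In the rest of scaffold 5, 50 genes were called (4.81%), and all 50 were lower in KO too.

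Het embryos lay at different places between wild-type and KO. With wild-type set to 0% and KO to 100% on the scale of normalized counts, the 6 neighbours called in the same direction in KO and t/t2 MO embryos had het values at a median of 7.33% (-5.75% to 46.9%), and the other 11 at a median of 34.7% (-7.15% to 88.9%). lyst lay at 8.09%, mybph at 3.03% and pdgfrl.2 at 6.57%, and among the others Xetro.E00998 at 46.7%, Xetro.E01110 at 64.3% and Xetro.E00891 at 88.9%. Not all of the others lay so far from wild-type, and het was close to wild-type in Xetro.E00953. Xetro.E01110 and Xetro.E00891 lost their KO call with the scaffold 5 level taken out. The median of the mean counts was 832 in the 6 and 409 in the 11, so the positions of the 11 are less precise. The positions share the wild-type and KO libraries with the calls and are a description. In a test added after the data had been seen, het was above the log2 midpoint of wild-type and KO in 3 neighbours, txlnb, lyst and pdgfrl.2 (by 0.67, 0.65 and 1.18), beside 0.417% of all genes. With the scaffold 5 level taken out, 1 of the 3 was called. The 1.5-fold threshold held for the distance from the midpoint too. With het near wild-type, only genes with a large KO change could therefore be called, and which genes these were rests largely on that change. A trend with the number of mutant chromosomes (0, 1 or 2) was called in 18 neighbours, 2 raised and 16 lowered, beside 3.3% of all genes, and 10 without cross 1. It took in all 17 genes above and unc93a, a membrane protein, which rose with 15, 10.4 and 16.1 normalized counts in wild-type, 31.1, 16.8 and 22 in het and 38.5, 19.4 and 34.2 in KO embryos at stage 26. Het stands at the middle of this scale, so the slope rests mainly on the wild-type and KO libraries already compared. The return of the 17 genes is thus no separate support, and a called trend does not show where het lies.

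Whether the crosses shared parents is not given in the labels. With different parents, the chromosomes of wild-type siblings could differ between crosses. KO against wild-type gave 28 called neighbours in cross 1, all lower, beside 5.48% of all genes, 7 in cross 2, all lower, beside 2.11%, and 11 in cross 9, 1 of them raised, beside 2.39%. As shares of the 210 these are 13.3%, 3.33% and 5.24%. Of the 17 neighbours called over all crosses, 6 were called in every cross and 7 in cross 2. In cross 2 the median of the rest of scaffold 5 in KO against wild-type was -0.01 at stage 26 and -0.13 at stage 34, in cross 1 -0.09 and -0.45, and in cross 9 -0.16 and -0.02. A difference of the KO effect between crosses was called in 0 neighbours, beside 0% of all genes. With few libraries per genotype in each cross, this does not show that the effects were equal. At an unadjusted p under 0.05 there were 14 neighbours (6.67%), beside 3.64% of all genes, and DESeq2 called 1, rnaset2. Within single crosses, het against wild-type gave no neighbour, beside 0.00556% of all genes in crosses 1 and 9 and 0% in cross 2. Between stages, a difference of the KO effect was called in 0 neighbours, beside 0.0278% of all genes. Here 11 neighbours (5.24%) had an unadjusted p under 0.05, beside 3.8% of all genes.

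In t/t2 morphants, 22 neighbours were called, 8 raised and 14 lowered. This is 10.5%, beside 15.2% of all genes (6.64% raised and 8.58% lowered) and 16.2% of the rest of scaffold 5. The largest change outside the genes above was in epb41l2, a membrane skeleton protein of the band 4.1 family, at 9.71 Mb on the lower side. It had 4957, 4760 and 4763 normalized counts in uninjected and 1670, 1538 and 1632 in t/t2 MO embryos at stage 26, and 4930, 4622 and 4585 against 1673, 1746 and 1731 at stage 34. The change was -1.53 ± 0.05 (adjusted p = 1.68e-14), with 0.02 in cMO and -0.13 in KO embryos, and the MO effect was 1.40 below the KO effect on the log2 scale (adjusted p = 2.54e-12). sdccag8 (a centrosomal protein) was raised by 1.13 ± 0.16 (adjusted p = 1.05e-05) in t/t2 MO embryos and was at -0.09 in KO embryos, and kmo (kynurenine 3-monooxygenase) was at -0.80 and -0.03. These last 2 were chosen after their values were seen.

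**Figure D4:**
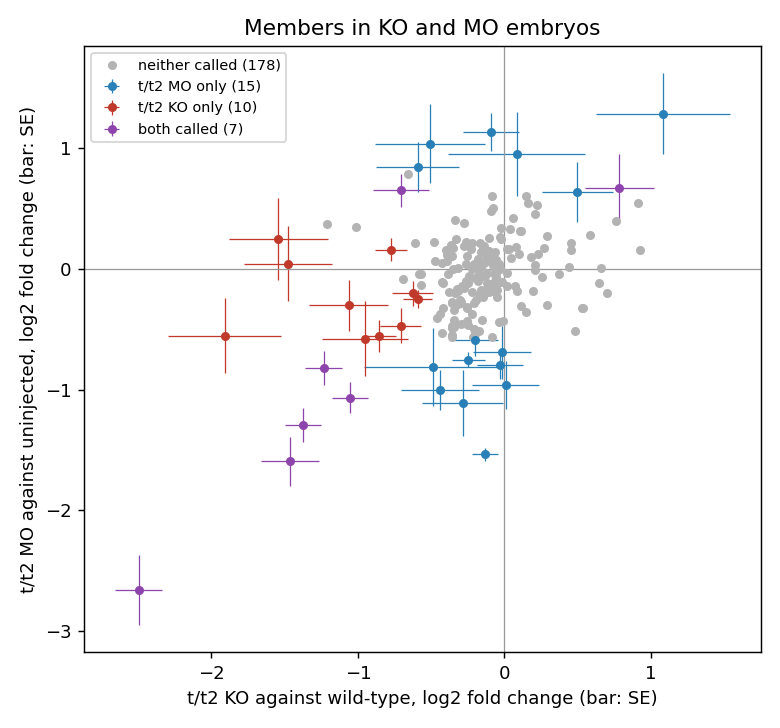
Log2 fold change of the 210 neighbours in t/t2 MO against uninjected (vertical) and t/t2 KO against wild-type (horizontal) embryos, with SE for called genes. Of the neighbours, 7 were called in both comparisons, 10 in KO alone, 15 in MO alone and 178 in neither.

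Of the 17 neighbours called in KO embryos, 6 were called in the same direction in t/t2 morphants, 1 in the opposite direction and 10 not. A gene called in one comparison and not in the other is not shown to differ, so the difference of the 2 effects was tested in a joint model. It was called in 15 neighbours, 12 with the MO effect above and 3 with it below the KO effect, beside 8.97% of all genes (7.14% of the neighbours). Over all genes, the MO effect was above in 783 and below in 830. The rest of scaffold 5 leaned the same way as the neighbours, with 79 above and 36 below. Of the 17, 5 were among these 15 neighbours, Xetro.E00953, Xetro.E00995, Xetro.E00998, Xetro.E01036 and Xetro.E01110. Without cross 2 the count was 23 and without frog E 10. The cMO changed 3 neighbours, all lower, beside 1.42% of all genes, namely Xetro.E00955, Xetro.E01084 and c6orf103. With the frog as a block, 6 were called. Uninjected embryos serve both morpholino comparisons, and wild-type embryos serve both genotype comparisons.

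Grouped by words in the deposited gene ontology terms, 17 neighbours past the filter had terms of muscle, heart, mesoderm or somites, and 2 of them were lowered in KO and 4 in t/t2 MO embryos, with none raised. Over all genes, 156 of 1660 in this group past the filter were lowered in KO and 240 in t/t2 MO embryos, and 13 and 103 were raised. With 17 neighbours, the lack of raised genes is no result about the neighbours. Terms of transcription covered 35 neighbours, with 1 lowered in KO and 0 in t/t2 MO embryos, beside 86 and 232 of 3350 genes. None of the 35 was raised, beside 26 and 201 of these genes. Terms of metabolism covered 45, with 1 raised and 3 lowered in KO and 1 raised and 8 lowered in t/t2 MO embryos, beside 22 and 117, and 260 and 374, of 3484 genes. Terms of transport covered 38, with 1 raised and 2 lowered in both comparisons, beside 25 and 79 in KO and 158 and 269 in t/t2 MO embryos of 2799 genes. Neural terms covered 28, with 1 lowered in KO and 2 in t/t2 MO embryos, beside 98 and 281 of 3089 genes. None of the 28 was raised, beside 29 and 181 of these genes. Immune terms covered 7, with 1 lowered in KO and 1 raised and 1 lowered in t/t2 MO embryos, beside 26, 145 and 77 of 1028 genes. None of the 7 was raised in KO, beside 7 of the 1028. The decreases in the group of muscle terms ran beside those of the muscle markers given above, whose part was not tested.

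The 81 neighbours under the filter were not counted. Of these, 9 had a mean above 7 in KO or t/t2 MO libraries. Among them was Xetro.E01080, described as a sulfotransferase, at 7.12 Mb. It had 10.7, 7.56 and 6.7 normalized counts in wild-type, 0.973, 3.14 and 1 in het and 0, 0 and 3.21 in KO embryos at stage 26, and 5.24, 12 and 9.14, then 8.98, 6.09 and 6.72, then 0 in all 3 KO libraries at stage 34. KO and wild-type values did not overlap (adjusted p = 0.0011 in edgeR's test). Uninjected and t/t2 MO embryos had means of 7.83 and 11.1. It was chosen after its values were seen.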

How the data were processed

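Poly(A) RNA-seq of 36 *X. tropicalis* libraries was analysed. The authors aligned read pairs with Bowtie2 (2.1.0, per the submitters' processing notes) to gene models and counted fragments per gene, and the deposited values are raw counts without normalization. Entries for unaligned reads (27.3% to 34.0% of all counts of a library), ribosomal (at most 0.462%) and mitochondrial RNA (at most 0.0582%) were left out. Gene positions were read from the v7.1 annotation file deposited with the counts. Counts were scaled with TMM and fitted with stage and condition per experiment in edgeR 4.0.16 (R 4.3.3, quasi-likelihood test, Benjamini-Hochberg over all genes with a count). Log2 ratios of pairs used a prior count of 2. DESeq2 1.42.0 served as an alternative. The procedure was run on simulated independent counts. These held no correlation within clutches and no shift of a whole scaffold, so the run says nothing on how either affects the p-values. Clutches pair the samples by the labels: deviations from group means correlated with a mean r of 0.298 within and -0.149 between crosses, and 0.309 and -0.154 for frogs. Deviations from a mean of 3 libraries sum to 0. The negative values between clutches therefore follow from those within and are no separate observation. No column of the count table was without a sample. Apart from the tests per cross and between crosses, the main fits held no term for clutch. Libraries of both stages from the same clutch thus counted as separate replicates, although they correlated. The p-values of these fits reflect spread within and between clutches together. Those of a single cross speak of that cross only.

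Members and lists were chosen with earlier results of these data known. Named neighbours were, past the filter: the 12 largest changes called in KO embryos with a mean count of at least 50 and one sign in all 6 pairs, all called in het, the 6 largest called trends, the 6 smallest p between crosses, the 4 nearest to t on either side, and the 4 largest called in t/t2 MO embryos with one sign in all pairs. Values of 2 of the neighbours nearest to t are not reported here. Figures were drawn with matplotlib 3.10.9.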

Additional observations from a re-analysis of the deposited data

Results flagged for a closer look

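The t/t2 MO effect and the t/t2 KO effect differed, by the test of their difference in the joint edgeR model, in 15 neighbours, given here as the MO effect minus the KO effect on the log2 scale. It was 0.70 in akap7, 0.74 in hivep2, 1.22 in sdccag8 and 1.58 in esr1 (the oestrogen receptor). It was 1.36 in Xetro.E00995, 1.36 in smyd3 and 1.78 in Xetro.E00998. It was 1.54 in Xetro.E00890, 0.93 in Xetro.E00953, 1.52 in Xetro.E01036, 1.44 in Xetro.E01055 and 1.35 in Xetro.E01110. The MO effect was below the KO effect in epb41l2 (-1.40), kmo (-0.77) and plg (plasminogen, -0.96). The 2 effects come from different clutches and control groups, and the level of scaffold 5 moved between libraries of the KO experiment as given above, so its part in these differences was not tested.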

How the results depend on the processing

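The 17 neighbours called in KO embryos numbered 10 in a window of 5 Mb, 45 in 20 Mb, 36 without a fold change threshold and 11 to 19 when a cross was left out (11 without cross 1). With median-of-ratios size factors there were 18, with DESeq2 20, and all 17 were among both. For KO against het the counts were 5, 26 and 17 under those first 3 settings and 7 to 16 with a cross left out, and for the trend with mutant chromosomes 11, 44 and 33, and 10 to 18. In het embryos 1 gene was called in 20 Mb and 0 in the main window under every alternative. For t/t2 MO the counts were 14 in 5 Mb and 60 in 20 Mb, with 17 to 26 when a frog was left out. For cMO they were 1 at an FDR of 1%, 1 in 5 Mb, 6 in 20 Mb, 5 with DESeq2 and 2 to 4 with a frog left out. The MO effect minus the KO effect was called in 10 to 23 with a clutch left out. At an FDR of 1% crosses 1, 2 and 9 gave 12, 4 and 6. DESeq2 called 1 neighbour for a difference between crosses, and with the scaffold 5 level taken out 1 was above the midpoint. With the replicate block, clutch as a term, the counts were 21 in KO, 0 in het, 12 in KO against het, 21 for the trend, 23 in t/t2 MO, 6 in cMO and 20 for the difference of effects, and no named neighbour lost its call.

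Named neighbours kept their direction under all alternatives run. Calls were lost without cross 1 in rsph3, fh, sft2d1, Xetro.E00998 and Xetro.E01036, without cross 9 in rsph3, Xetro.E00995 and Xetro.E01110, and without cross 2 in Xetro.E01110. Without the stage 34 libraries of cross 1, a setting added after the data had been seen, 15 neighbours were called, 12 of them among the 17, and rsph3 and sft2d1 were not. The causes were not tested. Low counts limit the smyd3 models.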
